A study of Homo sapiens with 2 samples.

Results

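The genes described here are those that stood at a low level in vehicle-treated C4-2 cells and at a higher level in ebastine-treated C4-2 cells. They were chosen from the deposited table of gene expression by 2 limits. A member had a vehicle value under 2 FPKM (fragments scaled by transcript length and library size), and an ebastine value at least 1.5 times the vehicle value. LCN2 and names that begin with SLC, ZNF, ABC, LINC, LOC, MIR, SNOR or HIST were left out. The authors' deposited table lists only genes with a p-value under 0.05, at most 0.0499, and every count here is over those genes. The limits gave 169 members of 1947 listed genes (8.68%), after 26 genes past both limits had been left out by name. The values of both libraries chose the members, so their level, direction and fold are a description and carry no test.

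C4-2 is an established human prostate cancer line, derived from LNCaP, that grows with little androgen. The compared groups were cells given ebastine, a histamine H1 receptor antagonist, and cells given vehicle, both at the same range of passages in serum-containing RPMI-1640 medium. Polyadenylated RNA was sequenced from 1 library per group, which leaves no replicate spread to judge a difference by, and no test of the treatment was computed here. The labels state no dose, exposure time or vehicle compound. The prostate luminal genes KLK3 and KLK2 stood at 1599 and 272 FPKM with ebastine and at 2476 and 465 FPKM with vehicle. TMPRSS2 was also lower, at 289 FPKM with ebastine and 362 FPKM with vehicle. The luminal genes FOLH1 and ACPP were higher, at 840 and 5.55 FPKM with ebastine and 495 and 2.21 FPKM with vehicle. Markers of other cell types could not be checked in this way, since a gene that is not listed had no p-value under 0.05 in the authors' deposited table and may still be expressed; 0 of 10 fibroblast and endothelial markers, 1 of 12 leukocyte markers and 5 of 10 luminal prostate markers were listed.

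The series title names EZH2 as the target of ebastine. EZH2 is the catalytic subunit of Polycomb repressive complex 2, which methylates lysine 27 of histone H3. The mark lies mainly over CpG-rich promoters of developmental and lineage genes that a cell keeps silent, and loss of EZH2 activity is known to let part of those genes be transcribed. EZH2 itself stood at 18.4 FPKM with ebastine and 26.2 FPKM with vehicle. In bulk RNA, a low transcript present in few cells and one present at low copy in every cell cannot be told apart.

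**Figure D1:**
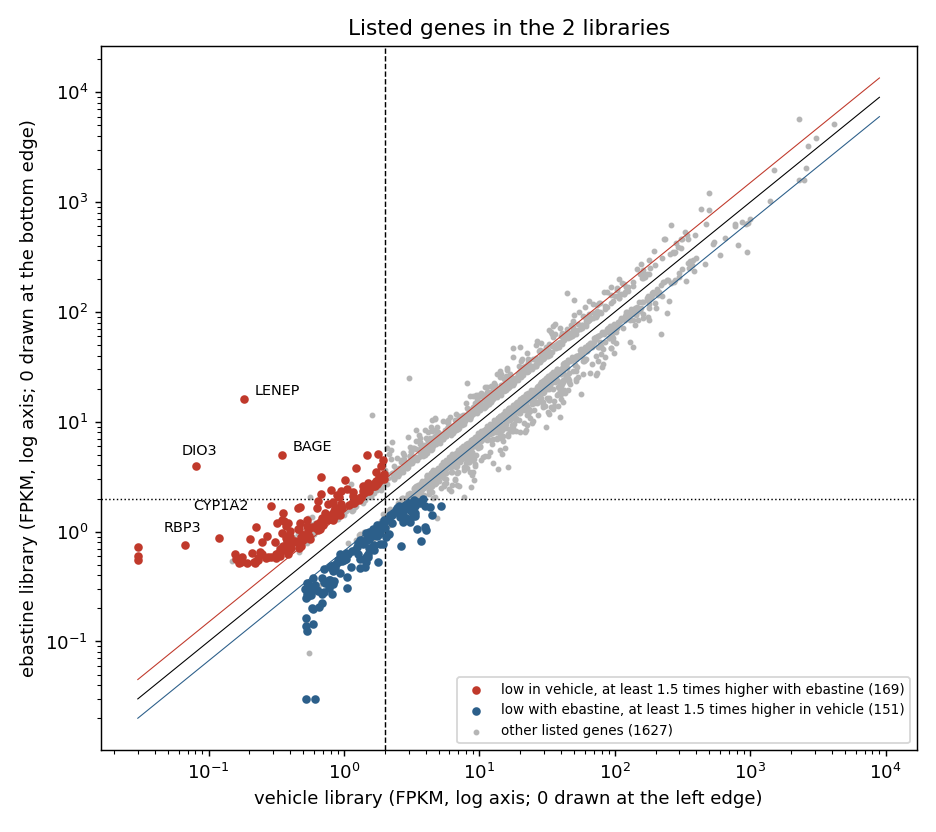
FPKM of every listed gene in the ebastine library (vertical, log axis) against the vehicle library (horizontal, log axis), 1 library each. Red points are the 169 members, left of the dashed line at 2 FPKM and above the red 1.5-fold line; blue points are the 151 genes that met the same limits with the libraries exchanged, below the dotted line at 2 FPKM and the blue 1.5-fold line. The members run along the 1.5-fold line, with LENEP, DIO3 and BAGE far above it, and no point lies where both values are under 0.513 FPKM.

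The members were low with vehicle by choice, and 119 of them stayed under 2 FPKM with ebastine. Their median was 1.26 FPKM with ebastine (range 0.513 to 16.3) and 0.630 FPKM with vehicle (range 0 to 1.99), and the median fold was 1.89. With vehicle 74 members were under 0.5 FPKM and 120 were under 1 FPKM. With ebastine 108 reached 1 FPKM, 50 reached 2 FPKM, 16 reached 3 FPKM and 3 reached 5 FPKM. At least 1 FPKM with ebastine and under 1 FPKM with vehicle was seen in 59 members. A fold of at least 2 was seen in 72 members, of at least 3 in 31 and of at least 5 in 9, counting 3 genes listed at 0 with vehicle. Of all listed genes, 19.4% were at least 1.5-fold higher and 5.86% at least 2-fold higher with ebastine; among all 356 listed genes under 2 FPKM with vehicle these shares were 54.8% and 23.6%. The summed FPKM of the members was 284 with ebastine and 131 with vehicle, and the single gene LENEP gave 10.5% of the difference.

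Genes low in one library were found in both directions. With the libraries exchanged, the same limits gave 151 genes that were low with ebastine and at least 1.5-fold higher with vehicle, and their median fold of vehicle over ebastine was 1.89. The members made up 49.7% of the 340 listed genes at least 1.5-fold higher with ebastine under the same name filter, and the exchanged set made up 30.8% of the 491 at least 1.5-fold lower. This balance moved when the listed values were rescaled. The rescaling factors came only from listed genes, all with a p-value under 0.05 in the authors' deposited table. Genes that another scaling would add were not listed, so the rescaled counts do not give the balance over all genes. With the values as deposited the members were 52.8% of both sets together. Multiplying the ebastine values by 1.27, which set the median ratio of well expressed listed genes to 1, gave 203 members and 65 genes in the exchanged set (75.7%), and multiplying by 1.15, from the upper quartiles, gave 202 and 96 (67.8%). Rescaling to equal sums left 169 and 150 (53.0%).

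The table has a lower edge that bears on the lowest members. No listed gene had both values under 0.513 FPKM, so a gene listed with less than 0.342 FPKM in the vehicle library met the 1.5-fold limit whatever it did. There were 42 such genes, all 42 were past the limit, and 39 of them were members. These 39 had a median fold of 2.70, and the 130 members above that level had a median fold of 1.77. A q below 0.05 in the authors' deposited table was held by 67 members (39.6%), beside 41.0% of all listed genes and 37.7% of the exchanged set (57 of 151); that test of the authors had 1 library on each side and compares those libraries. Members just inside the vehicle limit were CC2D2A, AK054970 and COL16A1, with 1.99, 1.97 and 1.94 FPKM with vehicle. The genes just outside it were SCAMP5, ID3 and TLCD2, with 3.64, 5.79 and 3.38 FPKM with ebastine and 2.02, 2.07 and 2.07 FPKM with vehicle. At the ratio limit TMEM163, DMGDH and RGL1 were just inside, with 1.95, 0.853 and 1.81 FPKM with ebastine and 1.29, 0.563 and 1.19 FPKM with vehicle. ITPR1, DDO and CPS1 were just outside it, at 1.497-, 1.494- and 1.492-fold.

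**Figure D2:**
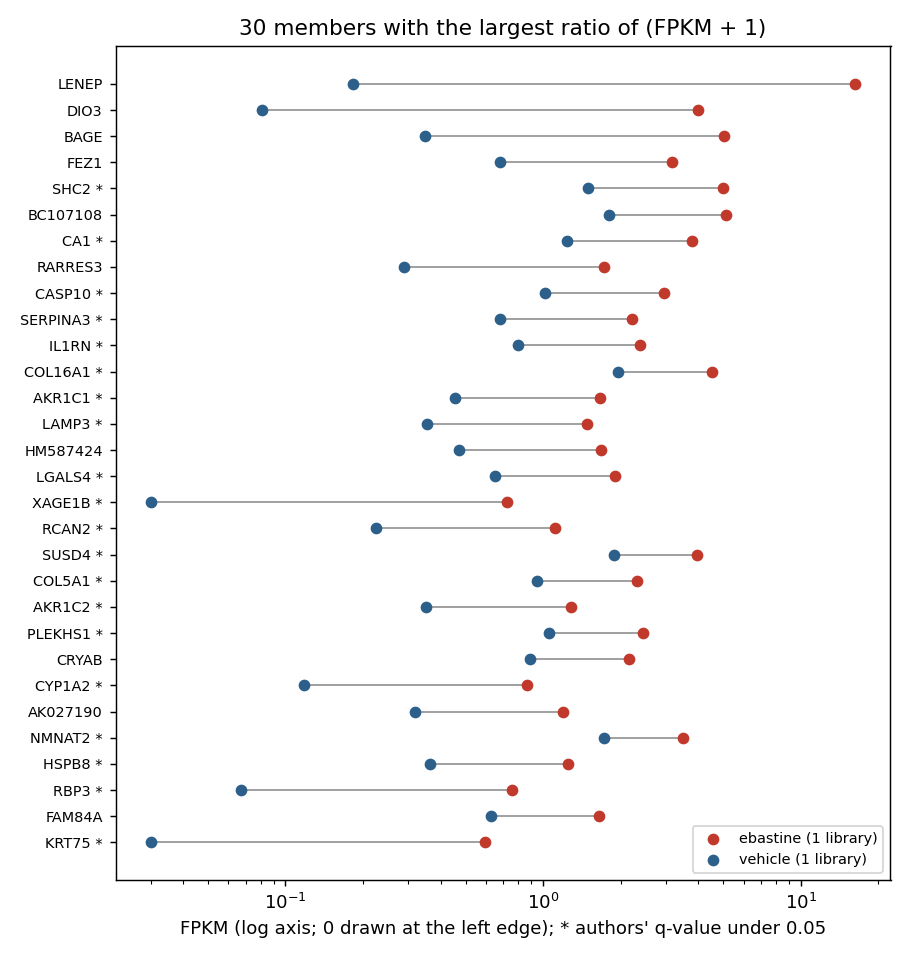
FPKM (log axis) in the ebastine library (red) and the vehicle library (blue) of the 30 members with the largest ratio after 1 FPKM is added to both values. Each row is 1 gene with 1 library per group, and an asterisk marks q below 0.05 in the authors' deposited table. XAGE1B and KRT75, listed at 0 with vehicle, have their vehicle point at the left edge, which is no measured level. Among the genes with a vehicle value above 0, LENEP, DIO3 and BAGE have the widest gaps and no asterisk.

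The largest folds belonged to genes known from lens, thyroid hormone metabolism, testis, retina, liver and skin. LENEP, a small protein described in lens epithelium, stood at 16.3 FPKM with ebastine and 0.183 FPKM with vehicle, 88.9-fold apart. DIO3, the deiodinase that inactivates thyroid hormone, stood at 3.99 FPKM with ebastine and 0.0809 FPKM with vehicle, 49.4-fold apart. BAGE, a cancer-testis antigen gene, stood at 5.03 FPKM with ebastine and 0.347 FPKM with vehicle, 14.5-fold apart. The q-values of these 3 genes in the authors' deposited table were 0.305, 0.0774 and 0.172. RBP3, the retinoid-binding protein of the photoreceptor matrix, was 11.2-fold higher (0.756 FPKM with ebastine and 0.0673 FPKM with vehicle). CYP1A2, a liver cytochrome P450 induced through the aryl hydrocarbon receptor, was 7.33-fold higher (0.868 FPKM with ebastine and 0.118 FPKM with vehicle). The keratin KRT75, the cornified-envelope precursor SPRR1A and the cancer-testis gene XAGE1B were listed at 0 with vehicle, and their ebastine values were 0.596, 0.549 and 0.726 FPKM. The authors' deposited table gave q below 0.05 for RBP3, CYP1A2, KRT75, SPRR1A and XAGE1B, although all 5 stayed under 1 FPKM in the ebastine library. Apart from BAGE, every gene named so far in this paragraph had a vehicle value under 0.342 FPKM. At such a value a listed gene had to reach at least 0.513 FPKM with ebastine, so a large fold was set by the lower edge. The folds and the tissues these genes are known from are thus a description of the selected rows. The reported loci (hg19) of the leading genes were short, at most 2.10 kb, for LENEP (chromosome 1, 154966062 to 154966791), DIO3 (chromosome 14, 102027688 to 102029789) and SPRR1A (chromosome 1, 152956564 to 152958290). BAGE was reported over 192 kb of chromosome 21 (10906743 to 11098937) and has near-identical copies, as has XAGE1B, so their reads can be split between copies or shared with other genes. In all, 13 members have near-identical copies and 9 share a reported locus with another listed gene; with the strand setting unknown, overlapping genes could not be separated.

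The 250 bases upstream of the annotated start are shown for the 6 members with the largest folds that had exactly 1 promoter window in the RefSeq table (GRCh38.p14), as the starts of the genes with the largest ratios. Capitals mark the letters ATAAA, part of the TATA box consensus, where they begin 40 to 20 bases before the start; the gene's own strand was searched.
KRT75, chr12:52434372-52434621, minus strand: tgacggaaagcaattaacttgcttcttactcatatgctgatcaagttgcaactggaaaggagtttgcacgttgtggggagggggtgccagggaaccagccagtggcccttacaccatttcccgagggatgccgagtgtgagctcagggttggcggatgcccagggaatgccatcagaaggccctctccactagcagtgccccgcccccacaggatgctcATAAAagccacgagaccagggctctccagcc
SPRR1A, chr1:152983831-152984080, plus strand: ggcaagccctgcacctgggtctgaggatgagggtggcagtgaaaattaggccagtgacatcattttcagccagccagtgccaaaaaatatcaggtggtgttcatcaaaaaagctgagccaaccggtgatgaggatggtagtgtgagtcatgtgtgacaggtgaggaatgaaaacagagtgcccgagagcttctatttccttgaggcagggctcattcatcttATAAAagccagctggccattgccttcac
LENEP, chr1:154993336-154993585, plus strand: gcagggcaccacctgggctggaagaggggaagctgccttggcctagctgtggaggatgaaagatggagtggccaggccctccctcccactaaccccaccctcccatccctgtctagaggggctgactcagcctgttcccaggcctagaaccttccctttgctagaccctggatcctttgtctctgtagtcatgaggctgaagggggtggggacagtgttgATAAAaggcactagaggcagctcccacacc
DIO3, chr14:101561245-101561494, plus strand: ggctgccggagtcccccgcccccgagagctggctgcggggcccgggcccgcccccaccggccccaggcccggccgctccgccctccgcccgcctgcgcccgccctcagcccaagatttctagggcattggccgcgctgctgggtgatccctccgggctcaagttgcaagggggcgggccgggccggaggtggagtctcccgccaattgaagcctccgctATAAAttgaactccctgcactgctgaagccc
CYP1A2, chr15:74748595-74748844, plus strand: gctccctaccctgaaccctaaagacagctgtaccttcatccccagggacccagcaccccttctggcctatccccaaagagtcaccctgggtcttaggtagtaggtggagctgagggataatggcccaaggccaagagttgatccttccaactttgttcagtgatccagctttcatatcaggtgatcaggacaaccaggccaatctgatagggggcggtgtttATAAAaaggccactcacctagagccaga
FEZ1, chr11:125496266-125496515, minus strand: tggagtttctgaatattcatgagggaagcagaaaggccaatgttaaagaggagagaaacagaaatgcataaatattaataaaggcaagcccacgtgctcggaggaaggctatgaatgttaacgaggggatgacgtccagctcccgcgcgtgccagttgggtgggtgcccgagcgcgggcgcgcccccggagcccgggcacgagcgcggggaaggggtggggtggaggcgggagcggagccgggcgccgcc
Of these 6 windows 5 held ATAAA in that stretch, beginning 28 to 31 bases before the start; FEZ1 did not. Among all 35116 RefSeq promoter windows of this size 4.65% held it there. The motif and its stretch were chosen after these sequences had been seen, so the count describes the printed windows alone. The KRT75, SPRR1A, LENEP and CYP1A2 windows held 7, 2, 0 and 1 CpG in 250 bases, whereas those of DIO3 and FEZ1 held 22 each. Only 109 of the 169 members (64.5%) had a window in that table, so a count over all members would be void.

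CpG content could be compared at transcript starts, which all 150 protein-coding members had in GENCODE 29. In the first 200 bases of their principal transcript, 91 of 150 members (60.7%) were CpG-rich, meaning a GC content of at least 55% and an observed over expected CpG ratio of at least 0.6. The exchanged set had 72 of 134 (53.7%), the other listed coding genes 1093 of 1542 (70.9%) and all annotated coding genes 54.9%. The median CpG ratio was 0.73 in the members, 0.71 in the exchanged set and 0.82 in the other listed genes. Their transcripts had a median length of 3326.5 bases against 2668 in the exchanged set and 3022 in the other listed genes, and a median GC content of 53.9% against 50.3% and 48.3%. Genes are not replicates, and no test was made of these differences.

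**Figure D3:**
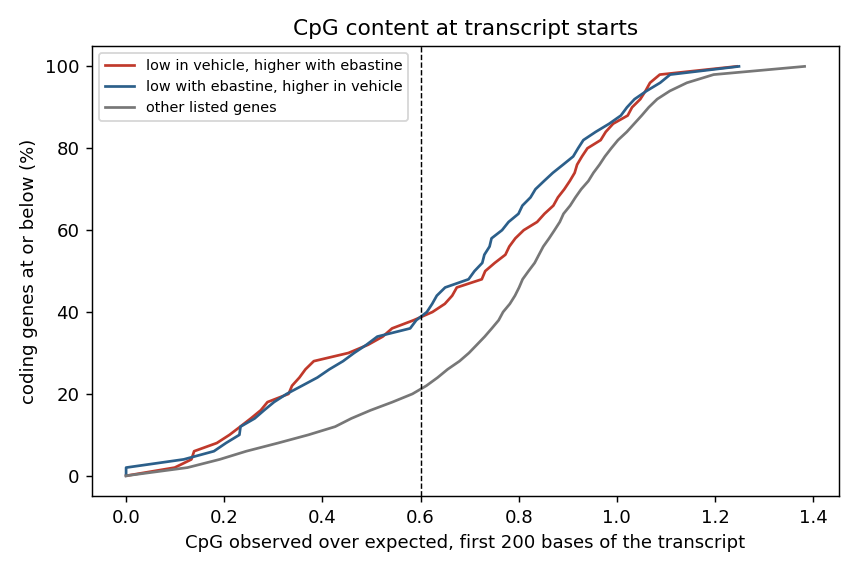
Cumulative share of coding genes (vertical, percent) against the CpG observed over expected ratio in the first 200 bases of the transcript (horizontal), with the limit of 0.6 dashed. The curves of the members (red, median 0.73) and of the exchanged set (blue, median 0.71) lie left of the curve of the other listed genes (grey, median 0.82).

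Over 13 lists of known programmes and cell type markers, 54 genes were in the table and 5 of them were members (9.26%), beside 8.68% of all listed genes. At that share a list with few listed genes would be likely to hold no member. A gene at 2 FPKM or more with vehicle could not be a member under the rule. Every listed EZH2-repressed, developmental, neuronal, interferon, lysosome, luminal and neuroendocrine gene stood at 2.21 FPKM or more with vehicle. For these lists a count of 0 was fixed by the rule, so it says nothing about the programme. These lists and the classes used below were drawn up by hand with earlier results of these data known. The lists were not complete, and members of the same kinds were missing from them. PDX1, FOXN4, PRDM16 and ASCL5 were not on the list of developmental transcription factors. GABRG3, RTN1 and RIMS4 were not on the neuronal list, and GBP2, NLRC5 and UBA7 were not on the interferon list. XAGE1B and VCX3B were not on the cancer-testis list. A list of 29 EZH2-repressed genes from cancer studies had 4 entries in the table, 2 higher and 2 lower with ebastine, and 0 members. Of 65 developmental transcription factors 7 were listed, 3 higher and 4 lower, and again 0 were members. Of 40 neuronal and synaptic genes 4 were listed, 2 in each direction, with 0 members. The interferon and antigen presentation list had 2 of 31 genes listed, both higher and neither a member. All 16 listed genes of the 34 on the lysosome list were higher and 0 were members. The lists that held members were NRF2 targets (10 of 21 listed, 7 higher and 3 lower; members AKR1C1 and AKR1C2), NF-kappaB and inflammatory genes (2 of 21 listed, both higher; member RELB), cancer-testis genes (1 of 25 listed; member BAGE) and leukocyte markers (1 of 12 listed; member CD4). Luminal prostate markers (5 of 10 listed, 2 higher and 3 lower), neuroendocrine markers (1 of 6, lower) and basal and squamous markers (1 of 6, LCN2) held none. LCN2 met both limits and was left out by name, so the 0 of its list was also fixed in advance. The members KRT75 and SPRR1A were not on the basal and squamous list.

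**Figure D4:**
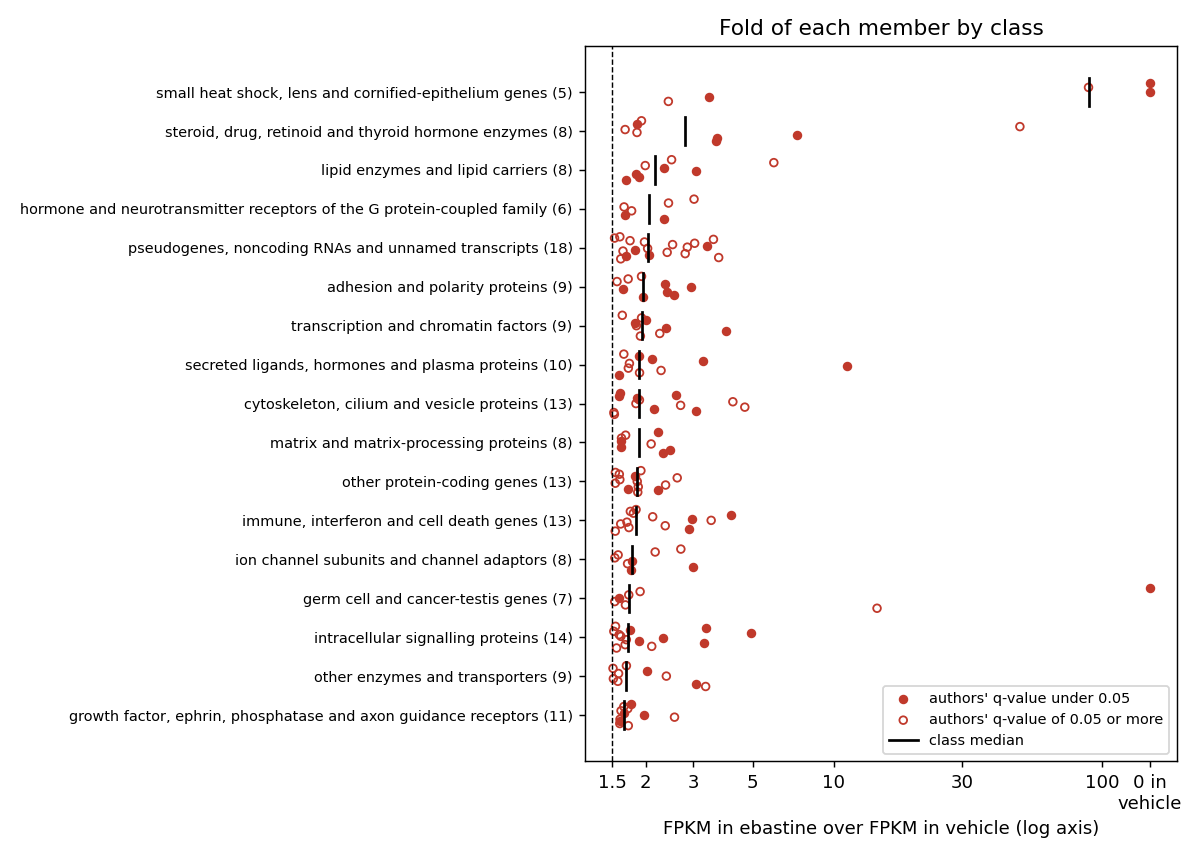
Fold of ebastine over vehicle (log axis) for each of the 169 members in 17 classes, with the number of members in brackets. Points are filled at q below 0.05 in the authors' deposited table and otherwise open, bars are class medians, and the dashed line is the 1.5-fold limit. Genes listed at 0 with vehicle are drawn at the right edge. Most classes have medians between 1.66 and 2.17, and the points beyond 10-fold belong to 4 classes.

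Members were sorted into 17 classes by known function. The exchanged set and the other listed genes were not sorted in this way. The class sizes therefore describe the members alone. Whether any class is more common among them than among other low genes was not tested. Counts at q below 0.05 in a class stand beside 41.0% of all listed genes and 39.6% of all members. Counts of at least 2-fold stand beside 72 of all 169 members. The classes are small, and no class was tested against these shares. Receptors, channels and other proteins of cell communication were among the members. Of 6 G protein-coupled receptors, 3 were at least 2-fold higher. ADRB1, the beta-1 adrenergic receptor, stood at 2.65 FPKM with ebastine and 1.59 FPKM with vehicle. ADRA2A, the inhibitory alpha-2A adrenergic receptor, stood at 1.07 FPKM with ebastine and 0.455 FPKM with vehicle. The nucleotide receptor P2RY2 had the largest fold of the class, 3.03, at 0.634 FPKM with ebastine and 0.210 FPKM with vehicle. The incretin receptor GLP1R, the adhesion-type receptor BAI1 (ADGRB1) and the muscarinic receptor CHRM3 stood at 0.527, 0.596 and 0.917 FPKM with ebastine and at 0.217, 0.336 and 0.552 FPKM with vehicle. ADRB1 and ADRA2A had q below 0.05 in the authors' deposited table, and the other members of the class did not.

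Of 8 channel genes, 3 had q below 0.05 in the authors' deposited table, beside 41.0% of all listed genes. GABRG3, a subunit of the GABA-A receptor, was 3.003-fold higher (1.13 FPKM with ebastine and 0.376 FPKM with vehicle). CACNA1D, a pore subunit of L-type calcium channels, stood at 0.799 FPKM with ebastine and 0.452 FPKM with vehicle. The modifying potassium channel subunit KCNG1 and the A-type potassium channel KCND3 were the highest of the class, at 3.05 and 2.05 FPKM with ebastine and 1.93 and 1.34 FPKM with vehicle. STAC, an adaptor of calcium channels, and HCN2, a pacemaker channel, were 2.70- and 1.71-fold higher and stayed under 1 FPKM.

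The 11 growth factor, ephrin, phosphatase and axon guidance genes had the lowest median fold of the classes, 1.66. The receptor phosphatase PTPRG stood at 2.79 FPKM with ebastine and 1.69 FPKM with vehicle. EPHA10, an ephrin receptor without kinase activity, stood at 3.03 FPKM with ebastine and 1.89 FPKM with vehicle. UNC5B, a netrin receptor, was 1.77-fold higher (1.20 FPKM with ebastine and 0.678 FPKM with vehicle), and the semaphorin co-receptor PLXNA2 was 1.98-fold higher (0.631 FPKM with ebastine and 0.319 FPKM with vehicle). These 4 genes had q below 0.05 in the authors' deposited table. FGFR2, a fibroblast growth factor receptor, stood at 2.36 FPKM with ebastine and 1.47 FPKM with vehicle. LINGO4 was the member of the class past 2-fold, at 0.631 FPKM with ebastine and 0.246 FPKM with vehicle. EFNB3, RTN4RL1, SRGAP3, PTPRR and ELFN2 lay between 1.60- and 1.72-fold.

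Of 10 secreted proteins, the acute-phase protease inhibitor SERPINA3 was 3.25-fold higher (2.21 FPKM with ebastine and 0.680 FPKM with vehicle). The complement regulator SUSD4 stood at 3.95 FPKM with ebastine and 1.88 FPKM with vehicle. AGT, which encodes angiotensinogen, stood at 2.88 FPKM with ebastine and 1.81 FPKM with vehicle. Both Wnt ligands were low, WNT9A at 2.32 FPKM with ebastine and 1.40 FPKM with vehicle and WNT4 at 0.940 FPKM with ebastine and 0.496 FPKM with vehicle. OLFM1, an olfactomedin secreted by neurons, stood at 2.49 FPKM with ebastine and 1.44 FPKM with vehicle. NRG4, a ligand of ERBB4, was 2.28-fold higher, CALCA, which encodes calcitonin and its related peptide, 1.90-fold, and SCUBE1 1.74-fold. With RBP3 in the class, 5 of the 10 had q below 0.05 in the authors' deposited table: RBP3, SERPINA3, SUSD4, WNT4 and AGT.

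Of 8 matrix and matrix-processing genes, 5 had q below 0.05 in the authors' deposited table, beside 41.0% of all listed genes. COL16A1, a collagen of the fibril-associated family (chromosome 1, 32117848 to 32169768), stood at 4.50 FPKM with ebastine and 1.94 FPKM with vehicle. COL5A1, a chain of the fibril-nucleating collagen V (chromosome 9, 137533651 to 137764464), stood at 2.32 FPKM with ebastine and 0.943 FPKM with vehicle. Both were over 2-fold, as was the basement membrane protein VWA2 (2.07 FPKM with ebastine and 0.926 FPKM with vehicle). The membrane-bound matrix metalloproteinase MMP16 stood at 2.85 FPKM with ebastine and 1.77 FPKM with vehicle, and DSEL, related to dermatan sulfate epimerase, at 2.63 FPKM with ebastine and 1.63 FPKM with vehicle. The heparan sulfate sulfotransferase HS3ST3B1 was 2.09-fold higher, TINAGL1 1.68-fold and the calcium-binding matrix protein SMOC2 1.62-fold.

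Among 9 adhesion and polarity genes, 6 had q below 0.05 in the authors' deposited table, beside 41.0% of all listed genes. Galectin-4 (LGALS4), a lectin of gut epithelium, was 2.94-fold higher (1.90 FPKM with ebastine and 0.648 FPKM with vehicle). The neuronal alpha-catenin CTNNA2 stood at 1.20 FPKM with ebastine and 0.471 FPKM with vehicle. ITGA3, the laminin-binding integrin alpha-3 chain, had the highest ebastine value, 2.77 FPKM, and 1.69 FPKM with vehicle. The cadherin CDH26 stood at 2.27 FPKM with ebastine and 1.16 FPKM with vehicle, the transmembrane mucin MUC20 at 0.872 FPKM with ebastine and 0.370 FPKM with vehicle, and HEG1, a receptor of endothelial junctions, at 0.527 FPKM with ebastine and 0.219 FPKM with vehicle. PARD3B and the protocadherins PCDHGC3 and PCDHGA8 completed the class at 1.56-, 1.93- and 1.72-fold; both protocadherins were reported over the same 182 kb locus and share exons.

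All 9 transcription and chromatin factors stayed under 2 FPKM with ebastine. FOXN4, a forkhead factor of retina and spinal cord, was 3.99-fold higher (0.625 FPKM with ebastine and 0.157 FPKM with vehicle). PDX1, the pancreatic homeodomain factor, stood at 1.62 FPKM with ebastine and 0.891 FPKM with vehicle. PRDM16, a regulator of brown fat, stood at 0.584 FPKM with ebastine and 0.291 FPKM with vehicle. ASCL5, an achaete-scute family factor, stood at 1.11 FPKM with ebastine and 0.581 FPKM with vehicle. KDM8, a JmjC-domain protein, stood at 1.27 FPKM with ebastine and 0.534 FPKM with vehicle, and the NF-kappaB subunit RELB at 1.04 FPKM with ebastine and 0.539 FPKM with vehicle. In the authors' deposited table FOXN4, KDM8, PRDM16 and PDX1 had a q-value under 0.05. CECR2, a bromodomain protein, was 2.26-fold higher, MAMLD1 1.85-fold and SP140L 1.64-fold.

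Immune and cell death genes numbered 13, of which 3 had q below 0.05 in the authors' deposited table, beside 41.0% of all listed genes. CASP10, an initiator caspase of death receptors (chromosome 2, 202047621 to 202094129), stood at 2.95 FPKM with ebastine and 1.02 FPKM with vehicle, a 2.89-fold ratio. IL1RN, the interleukin-1 receptor antagonist, stood at 2.37 FPKM with ebastine and 0.796 FPKM with vehicle. LAMP3, a lysosomal membrane protein of maturing dendritic cells, was 4.16-fold higher (1.47 FPKM with ebastine and 0.355 FPKM with vehicle). Genes inducible by interferon were low: GBP2, a guanylate-binding protein, was at 0.558 FPKM with ebastine and 0.159 FPKM with vehicle, NLRC5, the activator of MHC class I genes, at 1.53 FPKM with ebastine and 0.848 FPKM with vehicle, and UBA7, the ISG15-activating enzyme, at 0.608 FPKM with ebastine and 0.330 FPKM with vehicle. BTN3A1, a butyrophilin seen by gamma-delta T cells, stood at 2.37 FPKM with ebastine and 1.54 FPKM with vehicle. The T cell co-receptor CD4 was at 0.693 FPKM with ebastine and 0.400 FPKM with vehicle, and the other leukocyte markers on the list were not in the table, which does not show that they were absent. IL36RN, which lies near IL1RN on chromosome 2, was 2.12-fold higher, the kinase DAPK1 2.36-fold, and SCARF1, FAIM3 (FCMR) and DEFB132 1.75-, 1.70- and 1.61-fold.

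Enzymes acting on hormones and foreign compounds had a median fold of 2.79 over 8 members. Of the thyroid hormone enzymes beside DIO3, the activating deiodinase DIO1 stood at 2.33 FPKM with ebastine and 1.39 FPKM with vehicle, and IYD, which recovers iodide from iodotyrosines, at 1.23 FPKM with ebastine and 0.662 FPKM with vehicle. The aldo-keto reductases AKR1C1 and AKR1C2, which reduce steroids, stood at 1.66 and 1.29 FPKM with ebastine and at 0.454 and 0.350 FPKM with vehicle. They are near-identical and were reported over the same 236 kb locus on chromosome 10, so their values are not independent. CYP46A1, the cholesterol 24-hydroxylase of brain, was 1.86-fold higher at 0.714 FPKM with ebastine and 0.385 FPKM with vehicle, and the skin dehydrogenase SDR9C7 1.93-fold at 0.792 FPKM with ebastine and 0.411 FPKM with vehicle. CYP1A2, AKR1C1, AKR1C2 and IYD had q below 0.05 in the authors' deposited table. CYP1A1, which lies next to CYP1A2 and was just under the 1.5-fold limit, stood at 2.20 FPKM with ebastine and 1.48 FPKM with vehicle.

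Lipid genes numbered 8, with 5 at q below 0.05 in the authors' deposited table, beside 41.0% of all listed genes. GPD1, which links glycolysis to glycerolipid synthesis, was 3.08-fold higher (1.20 FPKM with ebastine and 0.389 FPKM with vehicle). LIPG, the endothelial lipase, stood at 1.78 FPKM with ebastine and 0.762 FPKM with vehicle (chromosome 18, 47088427 to 47119278). ACSL4, which activates arachidonic acid, stood at 2.58 FPKM with ebastine and 1.52 FPKM with vehicle. DGKH, a diacylglycerol kinase, stood at 2.79 FPKM with ebastine and 1.51 FPKM with vehicle, and the phospholipid flippase ATP8A1 at 0.829 FPKM with ebastine and 0.438 FPKM with vehicle. RARRES3 (PLAAT4), a retinoid-induced phospholipase, had the largest fold, 5.99 (1.72 FPKM with ebastine and 0.288 FPKM with vehicle), at a q-value of 0.185 in the authors' deposited table. SPTLC3, a serine palmitoyltransferase subunit, and the phospholipase PLCG2 were 2.50- and 1.99-fold higher and stayed under 1 FPKM.

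Among 9 other enzymes and transporters, NMNAT2, the NAD-synthesising enzyme of axons, stood at 3.50 FPKM with ebastine and 1.73 FPKM with vehicle. Carbonic anhydrase CA1 was 3.06-fold higher (3.79 FPKM with ebastine and 1.24 FPKM with vehicle), over a reported locus of 228 kb that can include other genes. UPP1, a uridine phosphorylase, stood at 2.67 FPKM with ebastine and 1.58 FPKM with vehicle. Of these 3, NMNAT2 and CA1 had q below 0.05 in the authors' deposited table. ACP5, the tartrate-resistant acid phosphatase of osteoclasts, was 3.34-fold higher at 0.590 FPKM with ebastine and 0.177 FPKM with vehicle, and the ectonucleotidase ENTPD3 2.39-fold. FLVCR2, the cathepsin CTSO, DMGDH and the zinc transporter TMEM163 lay between 1.51- and 1.58-fold.

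Signalling proteins formed a class of 14. SHC2, an adaptor of receptor tyrosine kinases (chromosome 19, 416583 to 460996), reached 4.995 FPKM with ebastine, against 1.49 FPKM with vehicle, a 3.35-fold ratio. Its paralog SHC3 stood at 0.738 FPKM with ebastine and 0.478 FPKM with vehicle. RCAN2, a calcineurin inhibitor, was 4.92-fold higher (1.11 FPKM with ebastine and 0.225 FPKM with vehicle), and MCTP1, a calcium-binding C2-domain protein, 3.30-fold (0.813 FPKM with ebastine and 0.247 FPKM with vehicle). RNF144B, an E3 ubiquitin ligase, stood at 3.16 FPKM with ebastine and 1.81 FPKM with vehicle. PLEKHS1 stood at 2.45 FPKM with ebastine and 1.05 FPKM with vehicle, and the small GTPase MRAS at 1.80 FPKM with ebastine and 0.954 FPKM with vehicle. These genes other than SHC3 were the 6 of the class with q below 0.05 in the authors' deposited table. RAB6C, a retrogene of the RAB6 family with near-identical copies, stood at 2.23 FPKM with ebastine and 1.40 FPKM with vehicle, and the guanine nucleotide exchange factor ARHGEF3 at 2.09 FPKM with ebastine and 1.34 FPKM with vehicle. The kinase BRSK1 was 2.11-fold higher, and NECAB2, the ERK phosphatase DUSP5, PPM1L and RGL1 were 1.69-, 1.68-, 1.62- and 1.52-fold higher.

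Cytoskeletal, ciliary and vesicle genes numbered 13. FEZ1, a kinesin adaptor of axonal transport, was 4.67-fold higher (3.17 FPKM with ebastine and 0.679 FPKM with vehicle), with a q-value of 0.109 in the authors' deposited table. TPPP, a tubulin polymerisation protein of oligodendrocytes, stood at 3.08 FPKM with ebastine and 1.92 FPKM with vehicle. The neuronal reticulon RTN1 stood at 2.81 FPKM with ebastine and 1.76 FPKM with vehicle. DYNC1I1, a neuronal dynein chain, was 3.07-fold higher at 0.529 FPKM with ebastine and 0.172 FPKM with vehicle, SPEG, a kinase of striated muscle, stood at 0.797 FPKM with ebastine and 0.308 FPKM with vehicle, the microtubule-binding EML6 at 0.570 FPKM with ebastine and 0.266 FPKM with vehicle, and RIMS4, of the synaptic active zone family, at 0.718 FPKM with ebastine and 0.385 FPKM with vehicle. TPPP, RTN1, DYNC1I1, SPEG, EML6 and RIMS4 had q below 0.05 in the authors' deposited table. CC2D2A, a protein of the ciliary transition zone, stood at 3.04 FPKM with ebastine and 1.99 FPKM with vehicle. ICA1L was 2.70-fold higher, the ciliary protein PIFO (CIMAP3) 1.89-fold, NBEA 1.84-fold and CLIP2 1.52-fold.

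Germ cell genes numbered 7. TDRD7, a Tudor-domain protein of germ granules, stood at 2.71 FPKM with ebastine and 1.71 FPKM with vehicle, and with XAGE1B was 1 of 2 in the class at q below 0.05 in the authors' deposited table. IZUMO4, of the sperm-egg fusion family, stood at 2.89 FPKM with ebastine and 1.72 FPKM with vehicle. VCX3B, an X-linked testis gene with near-identical copies, stood at 2.61 FPKM with ebastine and 1.37 FPKM with vehicle. TEX40 (CATSPERZ), of the sperm calcium channel, and RIMBP3 were 1.73- and 1.53-fold higher. Both small heat shock proteins among the members were over 2-fold: HSPB8, a co-chaperone of selective autophagy, stood at 1.24 FPKM with ebastine and 0.363 FPKM with vehicle, and CRYAB, which encodes alpha-B-crystallin, at 2.15 FPKM with ebastine and 0.886 FPKM with vehicle. HSPB8 had q below 0.05 in the authors' deposited table and CRYAB did not.

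The remaining 31 members were 13 coding genes of mixed function and 18 pseudogenes, noncoding RNAs or unnamed transcripts. Among the coding genes BCAS1, a marker of myelinating oligodendrocytes, stood at 0.889 FPKM with ebastine and 0.401 FPKM with vehicle. KIAA1683 (IQCN) stood at 1.15 FPKM with ebastine and 0.630 FPKM with vehicle and C17orf103 (NATD1) at 1.65 FPKM with ebastine and 0.966 FPKM with vehicle; these 3 had q below 0.05 in the authors' deposited table. ERV3-1, the envelope gene of an endogenous retrovirus, stood at 2.71 FPKM with ebastine and 1.76 FPKM with vehicle and shared its reported locus with ZNF117. FAM222A stood at 2.61 FPKM with ebastine and 1.63 FPKM with vehicle. FAM84A (LRATD1), CLEC18B, VWA7, CCDC7, AIM1L (CRYBG2), EVA1C, RGAG4 (RTL5) and SHISA2 lay between 1.54- and 2.62-fold. Of the 18 others 10 were at least 2-fold higher. The long noncoding RNA DGCR5, from the chromosome 22 region deleted in DiGeorge syndrome, was 3.38-fold higher (0.920 FPKM with ebastine and 0.272 FPKM with vehicle). BC107108 had the highest ebastine value of the class, 5.13 FPKM with ebastine, against 1.80 FPKM with vehicle, over a reported locus of 1.73 kb. HM587424 stood at 1.68 FPKM with ebastine and 0.470 FPKM with vehicle, AK054970, which shares its locus with DGKH, at 3.33 FPKM with ebastine and 1.97 FPKM with vehicle, BC013821 at 2.12 FPKM with ebastine and 1.16 FPKM with vehicle, and AK128400 at 0.692 FPKM with ebastine and 0.337 FPKM with vehicle. The pseudogenes PMS2P3 and GCSHP3 stood at 2.58 and 2.45 FPKM with ebastine and 1.69 and 1.40 FPKM with vehicle, and their reads can be shared with the parent genes. DGCR5, AK054970, BC013821 and AK128400 had q below 0.05 in the authors' deposited table. AK027190, FLJ22447, AK310665, DKFZp686G1344, AL117485, BC040733, FLJ31813, AX746755, AF268386 and SMG1P1 lay between 1.60- and 3.74-fold.

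Members lay on every autosome and on the X, counting VWA7 on an alternative haplotype of chromosome 6. They made up 8.68% of all listed genes, and the shares lay between 4.71% (4 of 85, chromosome 15) and 14.6% (6 of 41, chromosome 22). Counting members in stretches of at most 4 Mb, the fullest stretch was on chromosome 10, from 112257625 to 116054259 in hg19, and was picked out for that reason after the values were known. Each stretch was cut to the start of its first member and the end of its last. Listed genes just beyond these ends were not counted, which raises the share of members. The chromosome 10 stretch held 7 listed genes, of which 6 were members: DUSP5, ADRA2A, AK027190, PLEKHS1, ADRB1 and VWA2. PLEKHS1 and AK027190 share 1 locus, so 5 separate loci carried the 6 members. The gene in this stretch that was no member, the cohesin subunit SMC3, stood at 33.2 FPKM with ebastine and 42.0 FPKM with vehicle. The next fullest stretch, on chromosome 22, held 4 members among 8 listed genes.

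**Figure D5:**
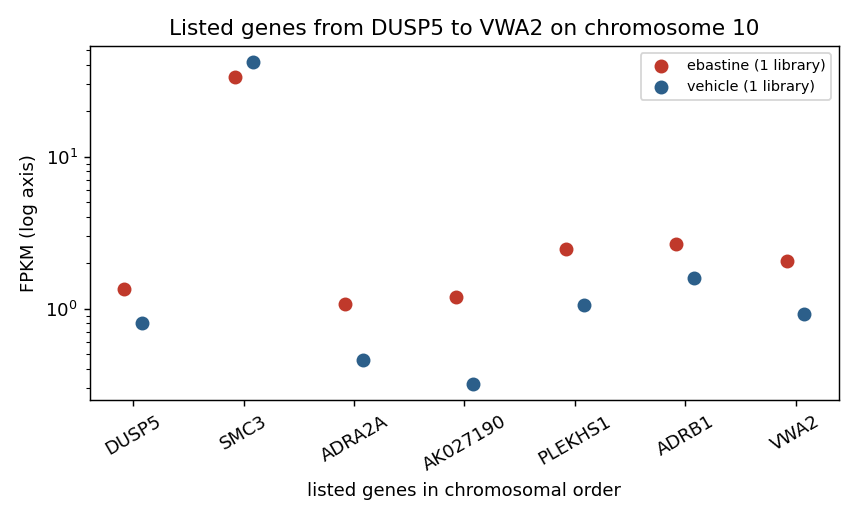
FPKM (log axis) of the 7 listed genes between DUSP5 and VWA2 on chromosome 10, in chromosomal order, with the ebastine library in red and the vehicle library in blue. The 6 members are higher in the ebastine library, between 1.67- and 3.74-fold, and SMC3 is lower, at 33.2 FPKM with ebastine and 42.0 FPKM with vehicle.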

How the data were processed

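Polyadenylated RNA of C4-2 cells was sequenced in 1 ebastine library and 1 vehicle library. The submitters' processing notes name TopHat2, Cuffdiff and hg19, without versions; no source used here names the gene models, strand setting or scaling. Per the file headers, the deposited table holds FPKM values of both libraries that the authors scaled between libraries, the authors' log2 fold change and test score (neither used here), and the deposited p-values and q-values of their test. Every listed gene had a deposited p-value under 0.05 (at most 0.0499), so genes with smaller differences were not analysed here. Depth is unknown, and no counting interval can be given.

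Members were selected by the FPKM limits with pandas 2.3.3 and numpy 2.4.6, and the selection was tested on simulated data. With 1 library per group no test was made. The members and gene lists were chosen with earlier results of these data known, and the classes were assigned after the values had been seen. Names were matched to RefSeq for 154 of 169 members. The other 15 have no entry and are given under their deposited names. Loci are printed 1-based. Transcript features came from GENCODE 29 (GRCh38), with 1 transcript per gene, APPRIS principal where marked. Both FPKM values are printed for members with a deposited q-value under 0.05, at least 2 FPKM with ebastine, a vehicle value of 0, a place on a list, or 1 of the 15 largest ratios with a pseudocount of 1 FPKM. Other limits, pseudocounts and scalings were tried as alternatives. A few members are counted but not reported here by name.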

Additional observations from a re-analysis of the deposited data

How the results depend on the processing

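The count of 169 members became 72 with a ratio limit of 2, 41 with a pseudocount of 1 FPKM in the ratio, 108 where the ebastine value had to reach 1 FPKM and 67 at q below 0.05 in the authors' deposited table. Under the other settings tried (vehicle limits of 1 and 3 FPKM, a lower ratio limit, a pseudocount of 0.1 FPKM and 3 rescalings of the libraries) it lay between 120 and 203. The median fold of 1.89 became 1.75 and 1.35 with pseudocounts of 0.1 and 1 FPKM, 1.77 where the ebastine value had to reach 1 FPKM, 2.22 at q below 0.05 in the authors' deposited table, and 2.41, 2.18 and 1.90 after rescaling by the median ratio of well expressed genes (mean 10 FPKM or more), by the upper quartile and to equal sums. A pseudocount shrinks the ratio of low genes by its construction, and the rescaling factors came from listed genes only. No paired analysis was possible because each group holds 1 library, and no library could be left out. The depth behind these low FPKM values is unknown.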

Other observations

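The 26 genes past both limits but left out by name were 6 solute carriers, 6 zinc finger genes or their antisense RNAs, 6 LOC transcripts, 5 LINC transcripts, HIST1H2AK, MIR22HG and LCN2. LCN2, an iron-siderophore binding protein of epithelia, stood at 11.6 FPKM with ebastine and 1.61 FPKM with vehicle. The sodium-glucose transporter SLC5A1 stood at 1.34 FPKM with ebastine and 0.545 FPKM with vehicle, a 2.46-fold ratio. SLC45A2, a melanosome transporter, stood at 0.761 FPKM with ebastine and 0.328 FPKM with vehicle. The endosomal sodium-proton exchanger SLC9A9 had the largest ratio of the solute carriers, 3.61-fold (0.537 FPKM with ebastine and 0.149 FPKM with vehicle). MIR22HG, the host transcript of a microRNA, stood at 2.71 FPKM with ebastine and 1.12 FPKM with vehicle. LCN2, SLC5A1 and MIR22HG had q below 0.05 in the authors' deposited table, and SLC45A2 and SLC9A9 did not.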
